A study of Homo sapiens with 18 samples.

Results

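Cytosolic ribosomal protein genes encode the proteins of the ribosome that works in the cytoplasm. They were taken from the deposited tables by symbol: protein-coding entries named RPSA, RPLP0, RPLP1, RPLP2, or RPL or RPS followed by a digit, listed for both cell lines, without the S6 kinases, RPS19BP1, RPS27L, Y-linked copies and read-through entries with a hyphen. The rule gave 82 genes, 51 of the large and 31 of the small subunit, out of 17110 genes in the HL-60 table and 17475 in that of MOLM-13. HL-60 is a promyelocytic leukaemia cell line, and MOLM-13 is an acute myeloid leukaemia line of monocytic type with a KMT2A fusion. Cells of each line were kept for 48 h (day 2) in the solvent dimethyl sulfoxide (DMSO), in decitabine (DAC) or in NTX-301, with 3 samples in each of the 6 groups. DAC is a cytidine analogue that is built into DNA and traps DNA methyltransferases, and NTX-301 is the same kind of molecule with sulfur in place of the ring oxygen of its sugar. The dose in the labels is 30 nM where the cells are HL-60 and 15 nM where they are MOLM-13, in words that can be read as the dose of both drugs or of DAC alone. The drugs were therefore compared at a matched time, and a matched dose is not certain. The labels call the samples triplicates without saying whether they came from separate cultures, so the p-values measure the spread between these samples, which may be technical.

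Each ribosome contains a single copy of most of these proteins, and the genes are transcribed at high rates in dividing cells. Their messenger RNAs start with a tract of pyrimidines, called the TOP motif, through which the mTOR pathway and the protein LARP1 control their translation. When ribosome assembly is disturbed, RPL5 and RPL11 together with the 5S ribosomal RNA bind MDM2, which stabilises p53. Loss of a copy of several of these genes causes Diamond-Blackfan anaemia, and loss of a copy of RPS14 is a feature of the myelodysplastic syndrome with deletion on the long arm of chromosome 5.

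All values below are the log2 expression values that the authors deposited, normalized within each line. They are not given per length, so levels are compared between samples for a gene and not between genes, and the lines are compared only through their drug effects. All 82 genes passed the filter on low values in both lines, so no member was left out. A gene "rose" or "fell" where limma gave a Benjamini-Hochberg adjusted p under 0.05 over all genes tested (17046 in HL-60, 17475 in MOLM-13). In such bulk samples, fewer cells of a type and less RNA per cell cannot be told apart. All 8 myeloid markers checked were listed in both lines, and of the leukaemia genes HOXA9 and MEIS1 in MOLM-13 alone. Of the T cell, B cell, erythroid, epithelial and fibroblast markers, CD3E, MS4A1, EPCAM and COL1A2 were listed in neither line. CD4, which monocytic cells also carry, was listed in both, between 12.45 and 12.83 in HL-60 and between 12.59 and 13.02 in MOLM-13. CD3D (7.38 to 7.78), HBB (8.17 to 9.30), KRT18 (9.24 to 9.43) and COL1A1 (5.81 to 6.08) were listed in MOLM-13 alone. The myeloid markers moved with the drugs, in both directions. In HL-60 LYZ (0.25), AZU1 (0.20) and CEBPE (0.19) rose with DAC, and CD33 (-0.10) and MPO (-0.07) fell. With NTX-301 PRTN3 (-0.76), ELANE (-0.48), MPO (-0.35), AZU1 (-0.25) and LYZ (-0.07) fell there, and CSF1R (0.42) and CEBPE (0.14) rose. In limma CD4 rose with DAC and fell with NTX-301 in HL-60 (0.12 and -0.23). In MOLM-13 CD4 rose with both drugs (0.39 and 0.29), COL1A1 with both (0.17 and 0.22) and CD3D with NTX-301 (0.28). The myeloid markers LYZ (0.78), MPO (0.72), CEBPE (0.66), CSF1R (0.51), AZU1 (0.17) and PRTN3 (0.16) rose there with DAC. With NTX-301 CSF1R (0.39), CEBPE (0.30), AZU1 (0.20) and LYZ (0.12) rose there and MPO (-0.09) fell. Myeloid markers not named for a drug and line did not pass. The part of these genes in the results was not tested. Several of these genes have near-identical processed pseudogenes, and RPL17, RPL36A and RPS10 share exons with read-through transcripts, so their values are uncertain to the extent that the authors' counting divided reads among such copies.

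RefSeq promoters of GRCh38.p14 were available for 66 of the 82 genes. The windows below run from 50 bases before the annotated start to 20 bases after it, on the gene's strand. Capitals mark a TOP-like run, defined as a C followed by at least 4 pyrimidines that begins within 5 bases of the start. RPS29 and RPL22L1 had the lowest differences after DAC in HL-60, RPS14 and RPL11 fell there too, RPL28 is shown as a gene that rose, RPLP0 as one that passed no test, and RPL36AL and RPS26 as those with low values in MOLM-13. RPS29 lies at chr14:49598691-49598760 on the minus strand, RPL22L1 at chr3:170870176-170870245 (minus), RPS14 at chr5:150449720-150449789 (minus), RPL11 at chr1:23691756-23691825 (plus), RPL28 at chr19:55385882-55385951 (plus), RPLP0 at chr12:120201092-120201161 (minus), RPL36AL at chr14:49620607-49620676 (minus) and RPS26 at chr12:56041868-56041937 (plus).
RPS29: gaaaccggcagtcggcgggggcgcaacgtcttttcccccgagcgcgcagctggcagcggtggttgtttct
RPL22L1: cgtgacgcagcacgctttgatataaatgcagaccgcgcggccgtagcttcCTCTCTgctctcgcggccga
RPS14: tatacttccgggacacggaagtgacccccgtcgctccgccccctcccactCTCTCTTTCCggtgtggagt
RPL11: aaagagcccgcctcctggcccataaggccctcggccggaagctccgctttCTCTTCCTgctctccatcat
RPL28: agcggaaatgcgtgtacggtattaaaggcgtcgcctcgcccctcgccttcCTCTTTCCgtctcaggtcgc
RPLP0: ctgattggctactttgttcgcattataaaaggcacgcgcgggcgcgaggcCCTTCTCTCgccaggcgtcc
RPL36AL: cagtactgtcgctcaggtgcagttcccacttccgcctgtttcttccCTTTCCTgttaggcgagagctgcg
RPS26: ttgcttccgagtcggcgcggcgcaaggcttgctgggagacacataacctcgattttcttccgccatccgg

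The TOP-like run was present at a listed start of 55 of the 66 genes. Counted by promoter entry, 59 of 82 entries of these genes had it (72%), against 21.1% of all 35116 promoters in the table. RPS29 and RPS26 had none that began within 5 bases of the annotated start, though their printed windows hold such a run of letters further from it. The ETS core CCGGAA, searched on both strands of the 300 bases from 250 before to 50 after the start, was present in 51.2% of the entries and in 17.2% of all promoters. The GC box GGGCGG on both strands was present in 53.7% and 45%, and TATAAA on the gene's strand, 40 to 20 bases before the start, in 3.66% and 2.3%. The median number of CG dinucleotides was 24 in these entries and 14 in all promoters. These are matches of letters, not measured binding sites.

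The first question was what each drug did to these genes in HL-60. After DAC, 65 of the 82 genes fell and 0 rose. The 4 genes with differences above 0 were RPS10, RPL28, RPL39L and RPL5, none of which passed the test. Of all genes tested, 24.2% passed, 12.6% lower and 11.6% higher, and of 3311 other genes that average 12 or more on the log2 scale, a level that 79 of the 82 genes reach in HL-60, 22.6% fell and 15.2% rose. The falls were small: the median difference was -0.11 on the log2 scale, or -7.6%, with an interquartile range from -0.14 to -0.086, beside a median of 0.00064 over all genes. At an unadjusted p under 0.05 the counts were 70 lower and 0 higher, and limma without the mean-variance trend gave 54 and 0. The groups did not overlap for 65 of the 82 genes (79.3%), against 38.5% of all genes. Both subunits took part, with 41 of 51 large subunit genes and 24 of 31 small subunit genes lower. Only 6 members passed the test with a change of at least 0.2, as 5.07% of all genes did.

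The same picture is seen in each sample. The median over the 82 genes was 15.40, 15.47 and 15.42 in the DMSO samples of HL-60, 15.26, 15.25 and 15.33 with DAC, and 15.41, 15.36 and 15.44 with NTX-301. Every DAC sample lay below every sample of the other groups. The genes held 6.77%, 6.94% and 6.85% of the summed linear values with DMSO, and 6.43%, 6.27% and 6.58% with DAC. With NTX-301 this share was 6.81%, 6.715% and 6.97%, which overlaps with DMSO on both sides. The genes also moved together between replicates: among the DAC samples, replicate 3 was the highest for 72 of the 82 genes and replicate 2 the lowest for 71. Among the NTX-301 samples the same replicates were the highest for 72 and the lowest for 65, while DMSO replicate 2 was the highest for 63. Counts of genes therefore do not stand for as many independent observations.

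**Figure D1:**
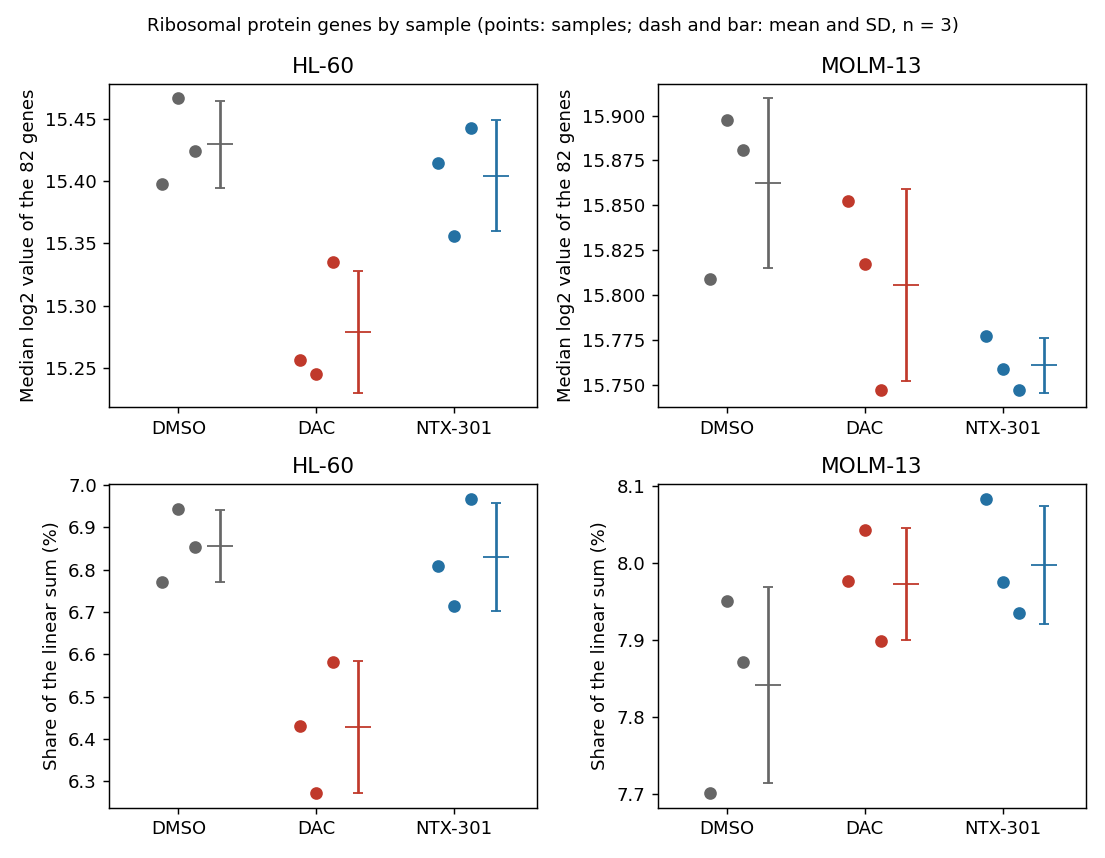
Median log2 value of the 82 ribosomal protein genes (upper panels) and their share of the summed linear values in percent (lower panels) for each sample of HL-60 and MOLM-13. Points are samples, and the dash and bar give the mean and SD (n = 3). In HL-60 the 3 DAC samples lie below all others in both measures. In MOLM-13 the medians with NTX-301 lie below those with DMSO and the medians with DAC overlap with them, while the share is not lower with the drugs. The axes do not start at 0.

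RPS29 had the lowest value of the 82 genes and RPL22L1, described with the large subunit, the next. RPS29 (NCBI Gene 6235), a zinc-binding protein of the small subunit head, read 13.48, 13.53 and 13.52 with DMSO, 13.08, 13.01 and 13.22 with DAC, and 13.54, 13.66 and 13.59 with NTX-301. The DAC samples lay well below the others, and the NTX-301 samples lay just above DMSO. Its difference of DAC from DMSO was -0.41 ± 0.043 (SE; limma adjusted p = 1.28e-05), a fold of 0.752. RPS27 (NCBI Gene 6232), another zinc-binding protein, read 14.39, 14.46 and 14.43 with DMSO and 14.17, 14.06 and 14.30 with DAC, a difference of -0.25 ± 0.046 (limma adjusted p = 0.00158). RPS21 (NCBI Gene 6227) read 13.45, 13.58 and 13.54 with DMSO and 13.27, 13.24 and 13.38 with DAC, a difference of -0.23 ± 0.038 (limma adjusted p = 0.000559). The DAC samples of both genes lay below all DMSO samples. RPS14 (NCBI Gene 6208), the gene of the deletion on chromosome 5, read 16.03, 16.09 and 16.05 with DMSO and 15.83, 15.79 and 15.90 with DAC. These values do not overlap, and the difference was -0.21 ± 0.027 (limma adjusted p = 7.95e-05). RPS15A fell by 0.25 and RPS28 by 0.15. RPS27, RPS15A, RPS14, RPS28 and RPS29 passed the test in all 17 alternative fits, with differences between -0.47 and -0.35 for RPS29.

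Other small subunit genes changed less or did not pass. RPS6, the substrate of the S6 kinases, read 15.63, 15.68 and 15.65 with DMSO and 15.58, 15.51 and 15.60 with DAC. Its difference was -0.09 ± 0.026 (limma adjusted p = 0.0246), and it missed the threshold without DMSO replicate 2 (-0.073), DMSO replicate 3 (-0.089) or DAC replicate 2 (-0.061), or with quantile normalization (-0.044). RPS19, the gene most often mutated in Diamond-Blackfan anaemia, read 15.43, 15.49 and 15.49 with DMSO and 15.43, 15.42 and 15.44 with DAC. These ranges touch, and the difference of -0.04 ± 0.020 did not pass (limma adjusted p = 0.162). RPS10 had the highest difference of all 82 genes, 0.027 ± 0.029, and RPS26 read -0.05. RPS16 was the least repeatable gene, with an SD of 0.21 among its DMSO samples.

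In the large subunit, RPL22L1 (NCBI Gene 200916), a paralogue of RPL22, had the lowest value. It read 11.78, 11.73 and 11.67 with DMSO, 11.47, 11.35 and 11.48 with DAC, and 11.43, 11.47 and 11.52 with NTX-301. Both drug groups lay below DMSO without overlap, and the DAC difference was -0.29 ± 0.039 (limma adjusted p = 0.000107). RPL37A read 15.88, 15.91 and 15.87 with DMSO and 15.70, 15.63 and 15.76 with DAC, a difference of -0.19 ± 0.029 (limma adjusted p = 0.000294). RPL11 read 16.03, 16.06 and 16.01 with DMSO, 15.84, 15.79 and 15.91 with DAC, and 15.998, 15.964 and 16.057 with NTX-301. Its DAC samples lay apart from the rest, at -0.18 ± 0.029 (limma adjusted p = 0.000403). RPL5, its partner in the 5S particle, read 16.33, 16.36 and 16.33 with DMSO and 16.36, 16.31 and 16.38 with DAC, with a difference of 0.01 ± 0.021 (limma adjusted p = 0.866). The partners thus had different calls, and the difference between them was not tested.

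The stalk proteins, which draw translation factors to the ribosome, had values near 0. RPLP0 read 16.89, 16.94 and 16.91 with DMSO and 16.89, 16.85 and 16.87 with DAC, an overlap, with a difference of -0.04 ± 0.018 (limma adjusted p = 0.124). RPLP2 and RPL12 read -0.05 and -0.04 and did not pass. RPLP1 fell by 0.07 (limma adjusted p = 0.0342), a call lost without DMSO replicate 2 (-0.044), without DAC replicate 1 (-0.075), 2 (-0.064) or 3 (-0.063), or without the length trend (-0.023). Of proteins that line the exit tunnel, RPL4 fell by 0.083, RPL17 by 0.16 and RPL39 by 0.10. The call of RPL39 was lost without DMSO replicate 2 (-0.090), DAC replicate 2 (-0.077) or the length trend (-0.041). RPL3, which reaches the peptidyl transferase centre, read 16.64, 16.67 and 16.66 with DMSO and 16.67, 16.65 and 16.64 with DAC, with no difference that limma could detect (-0.00012 ± 0.016, adjusted p = 0.997).

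**Figure D2:**
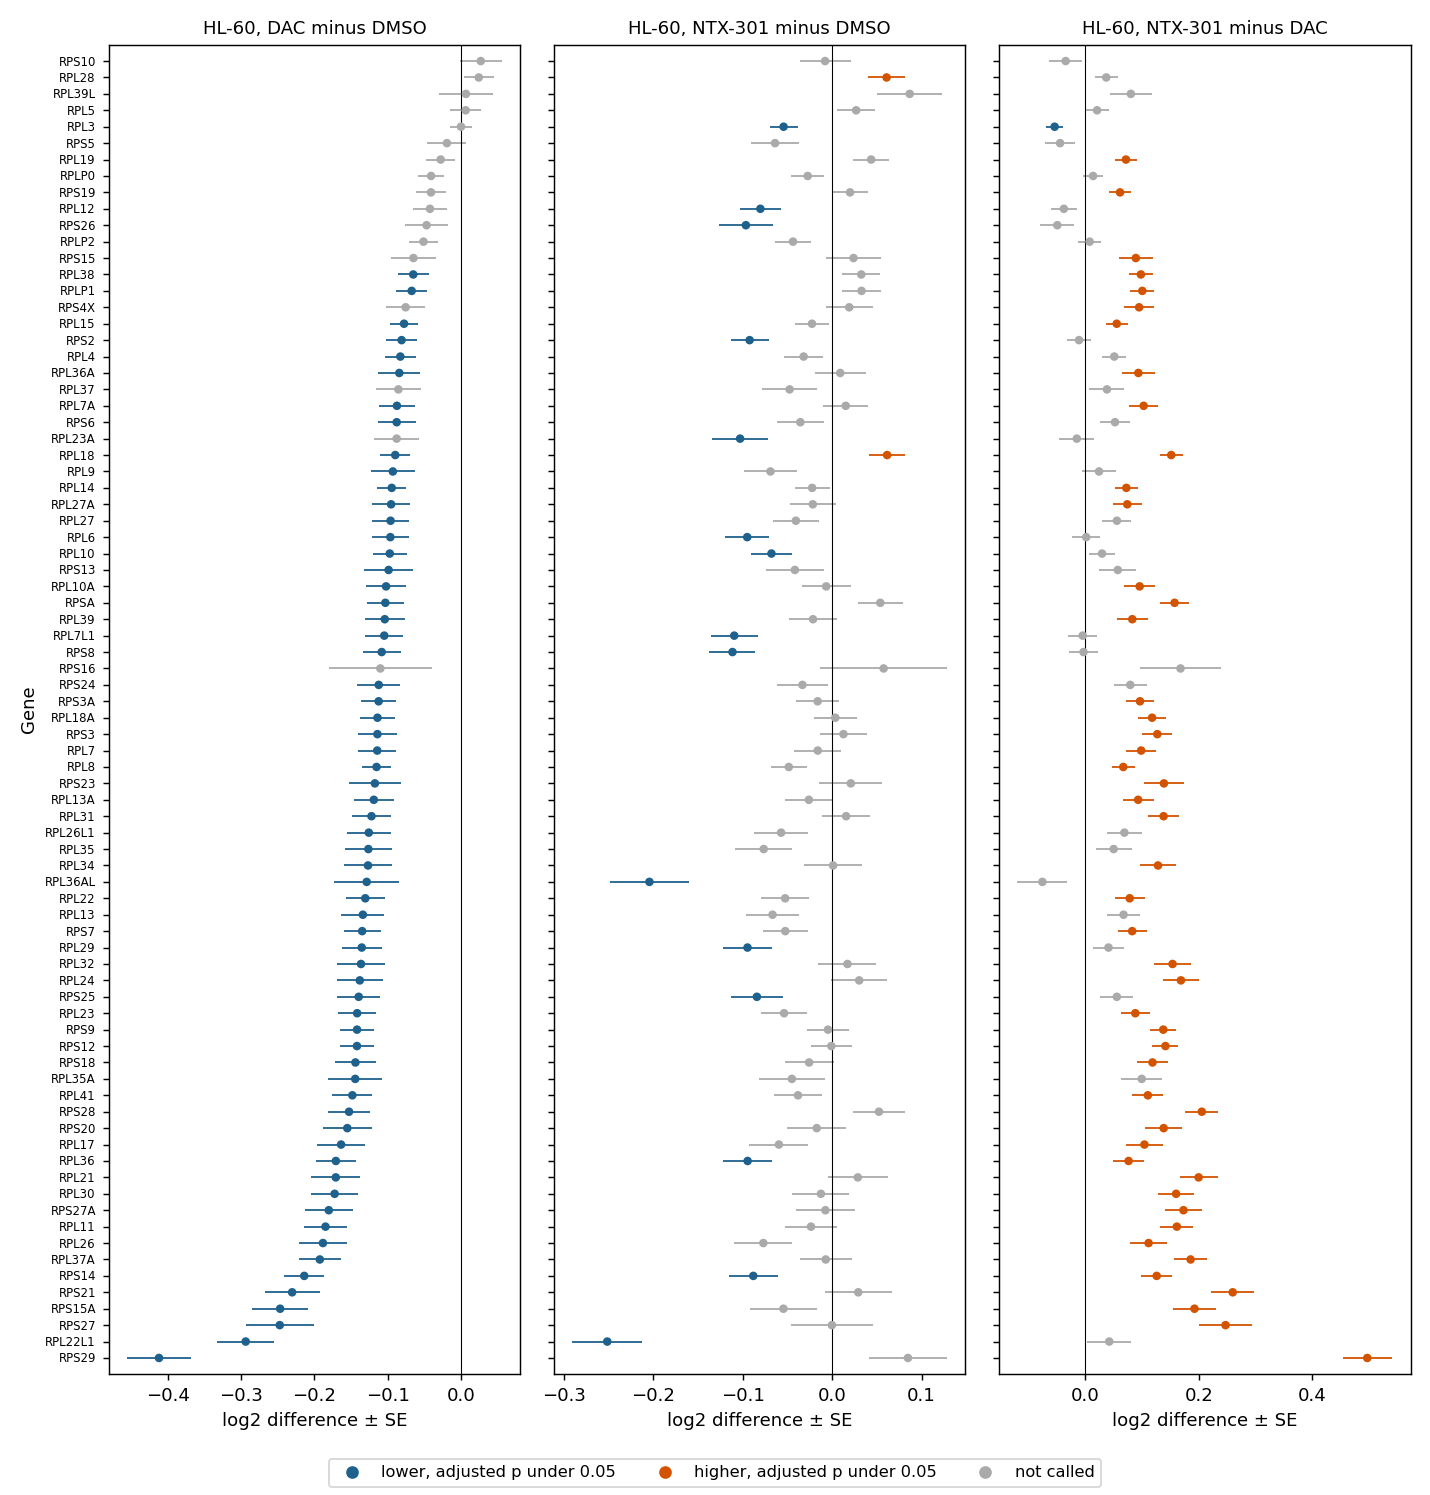
Log2 difference of 80 of the 82 genes in HL-60 (points, with SE bars) for DAC minus DMSO, NTX-301 minus DMSO and NTX-301 minus DAC, ordered by the first. Colours mark genes that passed the test (limma adjusted p under 0.05). With DAC most genes lie on the lower side and RPS29 stands lowest, while RPL18 and RPL28 are the genes that rose with NTX-301.

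With NTX-301 in HL-60 16 genes fell and 2 rose, RPL18 and RPL28. That is no more than the background, since 37.4% of all genes passed, 19.2% lower and 18.3% higher, and 40.8% of the other abundant genes (an average of 12 or more on the log2 scale) fell and 18% rose. A change of at least 0.2 was reached by 2 members and by 11.4% of all genes. The median difference was -0.023, beside 0.00082 over all genes. The counts depend on the scale: centring each sample gave 0 higher and 34 lower, quantile normalization 14 and 11, and removing the trend with mRNA length 8 and 20. Of all genes these settings gave 13.6% higher and 31.7% lower, 17.2% and 19.1%, and 25.8% and 25.7%. Shares without the length trend, here and below, are of the genes with a known length. They also depended on single libraries, with 11 called without DMSO replicate 2, 11 without NTX-301 replicate 1 and 8 without NTX-301 replicate 2.

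The genes that fell most clearly with NTX-301 were paralogues and a few core proteins. RPL22L1 fell by 0.25 ± 0.039 (limma adjusted p = 0.000153). RPL36AL (NCBI Gene 6166), a paralogue of RPL36A, read 12.70, 12.82 and 12.71 with DMSO and 12.53, 12.48 and 12.60 with NTX-301. Those groups did not overlap, and the difference was -0.20 ± 0.044 (limma adjusted p = 0.00211). RPL7L1 fell by 0.11 and RPS2 by 0.09. These 4 genes passed in all 17 alternative fits. RPS14 fell by 0.09 (limma adjusted p = 0.0207), but not without DMSO replicate 2 (-0.071), NTX-301 replicate 1 (-0.074) or NTX-301 replicate 2 (-0.077). Genes that led the fall with DAC did not pass here: the difference was 0.08 for RPS29, with a 95% interval from -0.0081 to 0.18, and -0.00032 for RPS27, from -0.100 to 0.099. RPL39L had the highest difference, 0.087, and did not pass. RPL28 read 13.29, 13.33 and 13.30 with DMSO and 13.37, 13.38 and 13.35 with NTX-301, a rise of 0.06 ± 0.021 (limma adjusted p = 0.0313). That call was lost with centred samples and without NTX-301 replicate 1 or 2. RPL18 read 15.14, 15.17 and 15.20 with DMSO and 15.21, 15.23 and 15.25 with NTX-301, a rise of 0.06 ± 0.020 (limma adjusted p = 0.0267) that missed the threshold without DMSO replicate 1 (0.044) or 2 (0.063), without NTX-301 replicate 2 (0.061) or 3 (0.050), or with centred samples (0.033).

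Set directly against each other in HL-60, NTX-301 gave higher values than DAC for 49 of the 82 genes and a lower value for RPL3 alone, while 30.4% of all genes passed, 15.4% higher and 15.0% lower. Of the other abundant genes 17.9% were higher and 31.6% lower. A difference of at least 0.2 was reached by 4 members and by 7.25% of all genes. The median difference was 0.085 (6.09%), beside 0.00045 over all genes. This comparison shares the DAC samples with the first, so it is not a separate observation of their low values. RPS29 differed by 0.50 ± 0.043 (limma adjusted p = 1.3e-06), a fold of 1.41. RPS21 differed by 0.26, RPS27 by 0.25, RPS28 by 0.21 and RPL11 by 0.16, and these 5 genes passed in all 17 alternative fits. RPL3 was lower by 0.05 (limma adjusted p = 0.0172), a call lost without DAC replicate 1 (-0.047), NTX-301 replicate 1 (-0.056) or NTX-301 replicate 2 (-0.054). RPL36AL (-0.076) and RPS26 (-0.05) were also among the 3 lowest and did not pass. RPL22L1 did not separate the drugs: its difference was 0.04 with a 95% interval that includes 0 (limma adjusted p = 0.469). After removal of the length trend 44 were higher and 7 lower, beside 21.6% and 22% of all genes. The total number called was 33 without DAC replicate 2 and 32 without NTX-301 replicate 3, against 50 with all samples.

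In MOLM-13 both drugs gave falls and some rises. With DAC 23 fell and 4 rose, where 36.6% of all genes passed, 21.2% lower and 15.4% higher, and 50.4% of the 3813 other abundant genes fell and 11.7% rose. With NTX-301 27 fell and 3 rose, where 45.1% of all genes passed, 24.8% lower and 20.3% higher, and 55.8% of the other abundant genes fell and 14.5% rose. A change of at least 0.2 was reached by 6 members with DAC and 8 with NTX-301, and by 15.2% and 21.2% of all genes. The median difference was -0.062 with DAC and -0.054 with NTX-301, where the other abundant genes had -0.081 and -0.10 and all genes 0.0013 and 0.0034. The 2 comparisons share the DMSO samples. The direction of the median depends on the scale: with quantile normalization it was 0.018 for DAC and 0.035 for NTX-301, and after removal of the trend with mRNA length 0.025 and 0.044. The calls followed, with 21 higher and 16 lower for DAC and 32 higher and 10 lower for NTX-301 under quantile normalization, and 26 and 9, and 31 and 7, after removal of the length trend. Centring gave 2 higher and 50 lower for DAC and 1 and 47 for NTX-301. Of all genes, quantile normalization gave 14.9% higher and 17% lower for DAC and 18.7% and 21.1% for NTX-301. Removal of the length trend gave 23.8% and 26.2% for DAC and 27.9% and 29.1% for NTX-301, and centring 11.2% and 32.8%, and 15.7% and 33%. In HL-60 the median for DAC stayed below 0 under these settings, at -0.095 with quantile normalization and -0.078 without the length trend.

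The samples of MOLM-13 show this dependence directly. The median over the 82 genes was 15.81, 15.90 and 15.88 with DMSO, 15.85, 15.82 and 15.75 with DAC, and 15.78, 15.76 and 15.75 with NTX-301. The NTX-301 samples lay below all DMSO samples, and the DAC samples overlapped with them. The share of the summed linear values was 7.70%, 7.95% and 7.87% with DMSO, 7.98%, 8.04% and 7.90% with DAC, and 8.08%, 7.975% and 7.935% with NTX-301. The share thus ran the other way from the median, and its groups overlapped. The summed linear values themselves, as a percentage of their DMSO mean, were between 98.9 and 101 with DMSO, 93 and 97.8 with DAC, and 94.7 and 95.4 with NTX-301. DMSO replicate 1 had the lowest value for 75 of the 82 genes and DAC replicate 3 for 76. The number called with DAC was 16 without DMSO replicate 2 and 13 without DMSO replicate 3, and with NTX-301 it was 18 and 16 without these, 19 without NTX-301 replicate 2 and 17 without NTX-301 replicate 3.

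**Figure D3:**
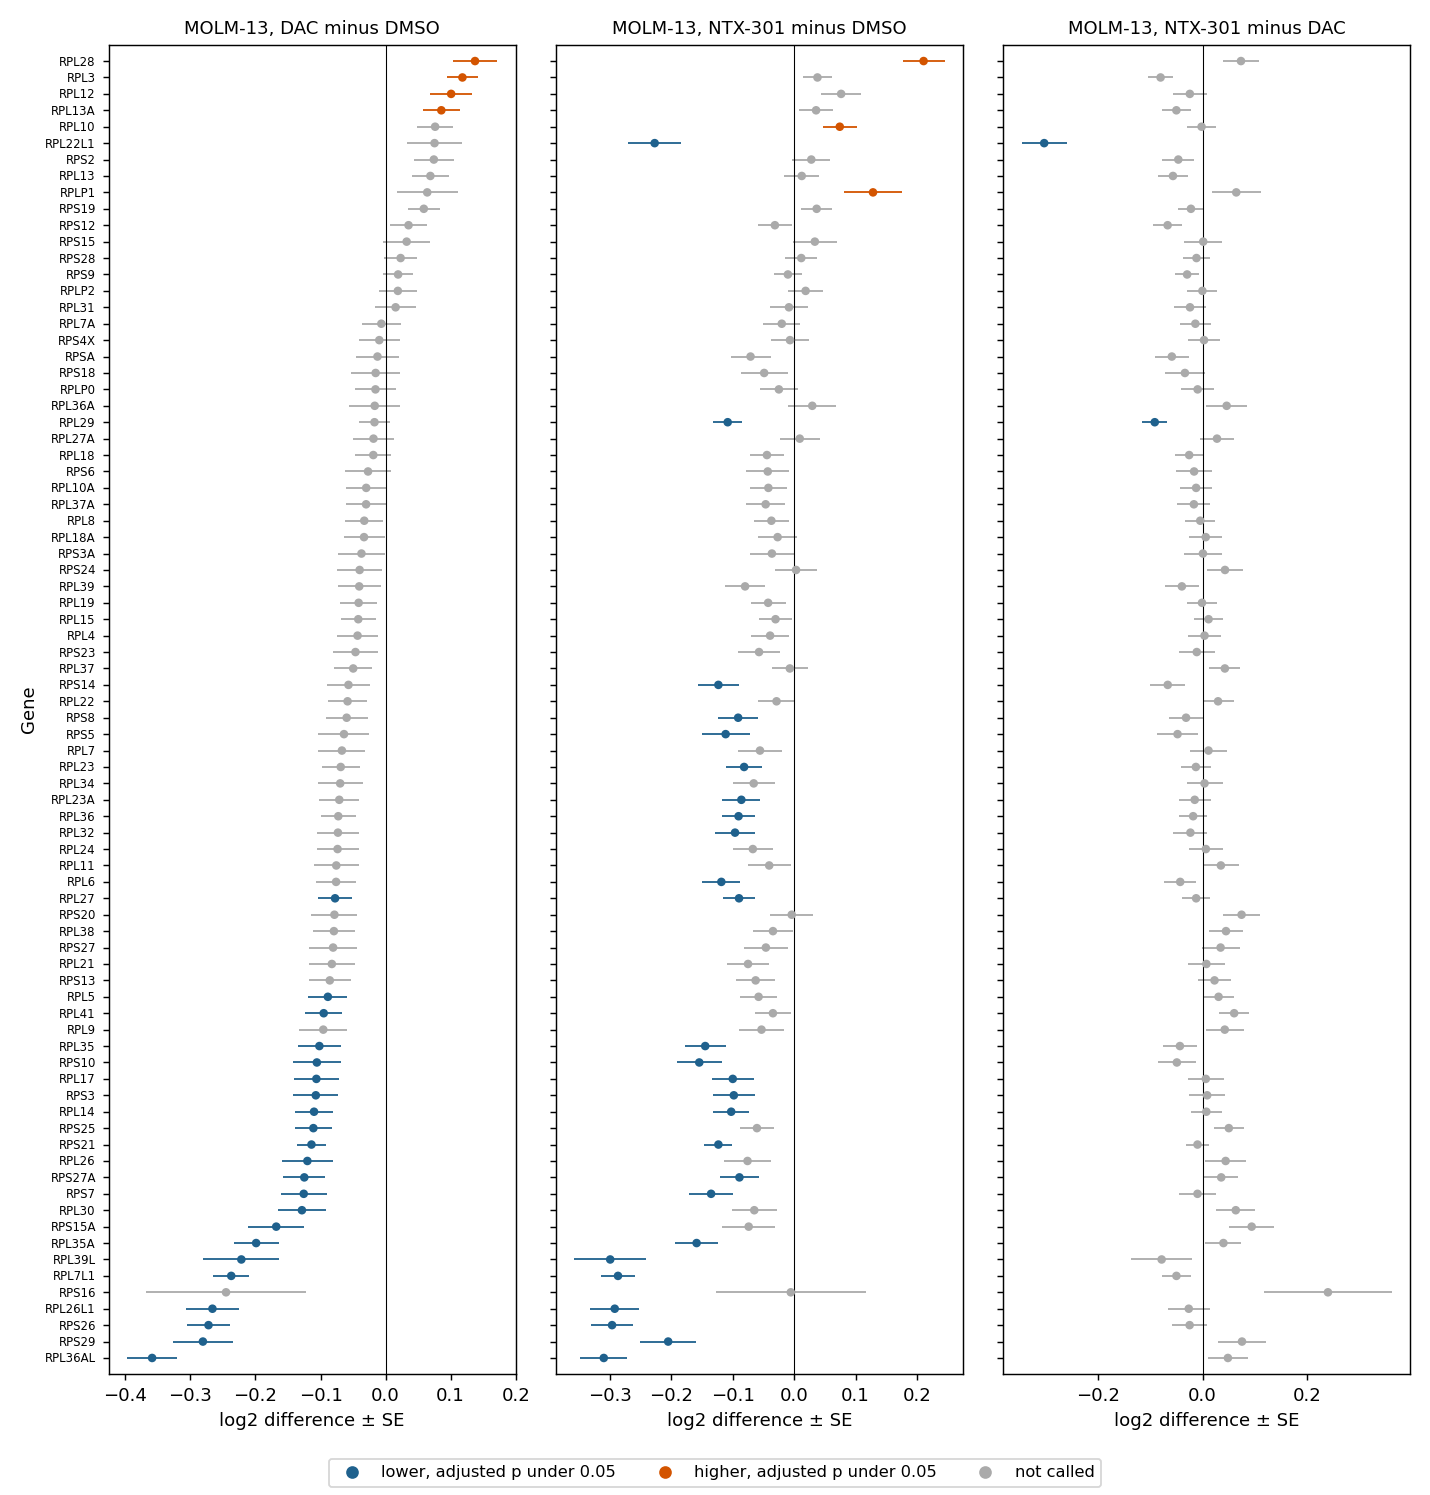
Log2 difference of 80 of the 82 genes in MOLM-13 (points, with SE bars) for DAC minus DMSO, NTX-301 minus DMSO and NTX-301 minus DAC, ordered by the first. Colours mark genes that passed the test (limma adjusted p under 0.05). RPL36AL, RPS29, RPS26 and RPL26L1 stand lowest among the genes that fell with DAC, RPL28 stands highest with both drugs, and RPL22L1 is the lowest gene in the comparison of the drugs.

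A few genes had larger falls in MOLM-13 than the rest. RPL36AL read 12.78, 12.84 and 12.87 with DMSO, 12.49, 12.55 and 12.38 with DAC, and 12.54, 12.51 and 12.51 with NTX-301. Both drug groups lay below DMSO, by 0.36 ± 0.038 with DAC (limma adjusted p = 3.39e-05) and 0.31 ± 0.038 with NTX-301 (limma adjusted p = 5.63e-05). RPS26 (NCBI Gene 6231), which contacts messenger RNA at the exit side of the small subunit, read 13.69, 13.75 and 13.72 with DMSO, 13.48, 13.48 and 13.38 with DAC, and 13.47, 13.41 and 13.38 with NTX-301. These values lay apart as well, with differences of -0.27 and -0.30 (both SE 0.034). RPL7L1 (NCBI Gene 285855), a relative of RPL7 that works in the assembly of the large subunit, read 15.23, 15.31 and 15.29 with DMSO, 15.08, 15.02 and 15.02 with DAC, and 15.01, 14.98 and 14.98 with NTX-301. Its differences were -0.24 and -0.29 (SE 0.027; limma adjusted p = 5.57e-05 and 9.08e-06). RPL26L1 read 10.54, 10.65 and 10.66 with DMSO, 10.35, 10.38 and 10.33 with DAC, and 10.28, 10.34 and 10.35 with NTX-301, at -0.27 and -0.29. RPL39L fell by 0.22 and 0.30. All of these passed with both drugs in all 17 alternative fits, including those under which the median of the 82 genes lay above 0.

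RPS29, the gene with the largest fall in HL-60, read 14.82, 14.91 and 14.93 in MOLM-13 with DMSO, 14.65, 14.69 and 14.48 with DAC, and 14.71, 14.66 and 14.68 with NTX-301. Here the samples of both drugs lay below DMSO. The differences were -0.28 ± 0.046 with DAC (limma adjusted p = 0.0006) and -0.21 ± 0.046 with NTX-301 (limma adjusted p = 0.00346). RPL35A fell by 0.20 with DAC and 0.16 with NTX-301, of which the second missed the threshold with quantile normalization (-0.0091) and without the length trend (-0.030). RPS14 read 15.80, 15.91 and 15.88 with DMSO, 15.86, 15.81 and 15.75 with DAC, and 15.74, 15.75 and 15.74 with NTX-301. It did not pass with DAC (-0.06 ± 0.033, limma adjusted p = 0.203), and fell by 0.12 with NTX-301 (limma adjusted p = 0.00943), though not with quantile normalization (-0.014) or without the length trend (-0.0056). RPL11 read -0.08 and -0.04 and passed with neither drug, and with NTX-301 it was called higher under quantile normalization (0.066) and without the length trend (0.061). RPL5 fell by 0.09 with DAC (limma adjusted p = 0.0362), a call lost without DMSO replicate 2 (-0.074) or 3 (-0.086), DAC replicate 2 (-0.097) or 3 (-0.069), or NTX-301 replicate 2 (-0.089), with quantile normalization (-0.016) or without the length trend (-0.022).

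Some genes rose in MOLM-13. RPL28 (NCBI Gene 6158), a large subunit protein that budding yeast lack, read 13.81, 13.72 and 13.82 with DMSO, 13.85, 13.98 and 13.93 with DAC, and 14.015, 13.971 and 13.997 with NTX-301. All drug samples lay above all DMSO samples, by 0.14 ± 0.034 with DAC (limma adjusted p = 0.00824) and 0.21 ± 0.034 with NTX-301 (limma adjusted p = 0.000394). These calls held in all 17 alternative fits. RPL3 read 16.84, 16.86 and 16.86 with DMSO, 17.00, 16.95 and 16.96 with DAC, and 16.90, 16.89 and 16.89 with NTX-301, a rise of 0.12 ± 0.024 with DAC (limma adjusted p = 0.00235) that held in all 17 fits. With NTX-301 RPL3 read 0.04 and did not pass. RPL13A rose by 0.09 with DAC (limma adjusted p = 0.0331). It was not called higher with centred samples, with a replicate block, with only the compared groups fitted, or without DMSO replicate 3. RPL12, at the base of the stalk, rose by 0.10 with DAC (limma adjusted p = 0.0282), but not without DMSO replicate 1 (0.078) or 3 (0.11), without DAC replicate 1 (0.079) or 2 (0.089), or with centred samples (0.064). With NTX-301 RPL12 read 0.08 and did not pass. With NTX-301 RPL10 and RPLP1 rose by 0.07 and 0.13 (limma adjusted p = 0.0468 and 0.0417). RPL10, which joins the large subunit late, missed the threshold without DMSO replicate 1 (0.061) or 3 (0.074), or without NTX-301 replicate 1 (0.057), 2 (0.081) or 3 (0.085), or with centred samples (0.044). RPLP1 missed it without DMSO replicate 2 (0.094) or 3 (0.13), or without NTX-301 replicate 1 (0.093) or 3 (0.12), or with centred samples (0.098), and its groups overlapped.

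Between the drugs, MOLM-13 gave 2 genes lower with NTX-301 than with DAC and 0 higher, where 7.42% of all genes passed, 4.41% lower and 3.01% higher, and 10.0% of the other abundant genes were lower and 5.22% higher. A difference of at least 0.2 was reached by 1 member and by 2.12% of all genes. At an unadjusted p under 0.05 the counts were 4 lower and 0 higher, and limma without the trend gave 3 and 0. RPL22L1 read 13.01, 13.12 and 13.05 with DMSO, 13.24, 13.08 and 13.08 with DAC, and 12.87, 12.83 and 12.79 with NTX-301. The NTX-301 samples lay below all others, and those of DAC overlapped with DMSO. The drugs differed by -0.30 ± 0.043 (limma adjusted p = 0.00246, 95% interval from -0.40 to -0.21), in all 17 alternative fits. RPL29 was the other, at -0.09 ± 0.024 (limma adjusted p = 0.0419), which did not hold without DMSO replicate 2 or 3 (-0.091 and -0.091), DAC replicate 1 or 2 (-0.080 and -0.091), or NTX-301 replicate 1, 2 or 3 (-0.096, -0.078 and -0.099). For the rest a difference was not shown, which does not mean that the drugs act alike. RPS16 (0.24) and RPS15A (0.094) had the highest differences and RPL3 (-0.080) was among the 3 lowest, and none of these passed. The 95% intervals of the difference between the drugs ran from -0.025 to 0.18 for RPS29, from -0.14 to 0.0057 for RPS14, from -0.036 to 0.13 for RPL36AL and from -0.077 to 0.058 for RPLP0. Quantile normalization gave 6 higher and 3 lower, and removal of the length trend 5 and 2, beside 3.7% and 4.09%, and 6.01% and 7.86% of all genes.

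Each drug's effect was then compared between the lines, by taking the log2 difference in HL-60 from that of MOLM-13. For DAC 16 of the 82 genes were higher by this measure, that is, less reduced or more raised in MOLM-13, and 5 were lower, beside 12.1% and 17.9% of the 15474 genes tested, or 30.0% in all. Of the other abundant genes 9.49% were higher and 40.3% lower. A size of at least 0.2 was reached by 6 members and by 15.8% of all genes. The median was 0.069. RPL22L1 differed most, at 0.37 ± 0.063 (limma adjusted p = 0.000192), from -0.29 in HL-60 to 0.08 in MOLM-13. RPL13A (0.20) and RPL13 (0.20) followed. RPL13A was the only one of the 82 genes that fell with DAC in HL-60 and rose in MOLM-13. That rise did not hold in all fits, as given above, and the difference missed the threshold with quantile normalization (0.049). RPS28, in the messenger RNA channel, differed by 0.18 ± 0.040 (limma adjusted p = 0.00248), RPL10 by 0.17, RPS14 by 0.16 and RPL12 by 0.14. On the other side were RPL36AL (-0.23, which missed the threshold with quantile normalization at -0.17), RPL39L (-0.23, which missed it without HL-60 DAC replicate 3 at -0.21 or MOLM-13 DAC replicate 3 at -0.18) and RPS26 (-0.23 ± 0.047, limma adjusted p = 0.00129). The DAC effect on RPS29 did not pass this test (0.13 ± 0.070, limma adjusted p = 0.172). RPL10, RPL12, RPL13, RPL22L1, RPS14, RPS26 and RPS28 kept these calls in all 26 alternative fits. Quantile normalization raised the counts to 47 higher and 3 lower, and removal of the length trend to 51 and 5, while centring gave 12 and 7. Of all genes these settings gave 13% higher and 14% lower, 17.3% and 22.5%, and 8.78% and 28.3%.

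For NTX-301 5 genes were higher and 9 lower in MOLM-13 than in HL-60, beside 17.6% and 22.4% of all genes, or 40% in all, and 17.3% and 41.9% of the other abundant genes. The median was -0.027, and 4 members and 23.3% of all genes reached a size of at least 0.2. RPL39L was lowest, at -0.39 ± 0.071 (limma adjusted p = 0.000269). RPS29 was next, at -0.29 ± 0.070 (limma adjusted p = 0.0028), from 0.08 in HL-60 to -0.21 in MOLM-13, then RPL26L1 at -0.24 and RPS26 at -0.20. RPL12 (0.16), RPL28 (0.15), RPL10 (0.14) and RPL3 (0.09) were higher. These 8 genes passed in all 26 alternative fits. Under quantile normalization the median was 0.026, with 19 higher and 7 lower, and without the length trend 0.063, with 30 and 5. Of all genes these settings gave 18.9% higher and 19.3% lower, and 22.4% and 25.8%.

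The lists of genes that fell with DAC in the lines overlapped in 19 genes, which are 19 of the 65 in HL-60 and 19 of the 23 in MOLM-13. Since 79.3% of the 82 genes fell in HL-60, an overlap of about this size follows from the counts, and nothing is read from it. Among them are RPS29, RPS21, RPS15A, RPS27A, RPL26, RPL35A, RPL36AL and RPL7L1. The HL-60 call of RPL36AL with DAC (-0.13 ± 0.044, limma adjusted p = 0.0482) held in 8 of 17 alternative fits, which ranged from -0.18 to -0.082. For NTX-301, 11 genes fell in both lines, out of 16 and 27, an overlap that was not tested, among them RPL22L1, RPL36AL, RPL7L1, RPS26 and RPS14. The HL-60 calls of RPS26 and RPS14 with NTX-301 each held in 13 of 17 alternative fits. RPL28 rose with NTX-301 in both lines, though its HL-60 call did not hold in every fit. RPL37, RPLP0, RPLP2 and RPS16 passed none of the 6 tests within the lines.

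Paralogues, second copies with their own loci, did not follow the genes they resemble in every case. RPL22 read 15.18, 15.13 and 15.10 in HL-60 with DMSO and 15.00, 14.97 and 15.05 with DAC, and fell by 0.13 while RPL22L1 fell by 0.29. In MOLM-13 RPL22 read 15.04, 15.11 and 15.08 with DMSO and 15.10, 15.01 and 15.03 with NTX-301, which did not pass (-0.03), while RPL22L1 fell by 0.23. Under quantile normalization RPL22 was called higher there (0.0998). RPL36A read 14.50, 14.59 and 14.47 in MOLM-13 with DMSO, 14.55, 14.54 and 14.42 with DAC, and 14.59, 14.52 and 14.54 with NTX-301, with overlap throughout and no pass, where RPL36AL fell with both drugs. RPL26 and RPL26L1 both fell in HL-60 with DAC, by 0.19 and 0.13. In MOLM-13 RPL26 fell with DAC by 0.12, a call lost without DMSO replicate 2 (-0.098) or 3 (-0.11) or DAC replicate 3 (-0.076), with quantile normalization (-0.024) or without the length trend (-0.034), and did not pass with NTX-301 (-0.08). RPL39 passed neither drug's test in MOLM-13, where RPL39L read 9.60, 9.67 and 9.67 with DMSO, 9.50, 9.46 and 9.32 with DAC, and 9.43, 9.35 and 9.26 with NTX-301. In HL-60 RPL39L read between 7.14 and 7.29 in all 9 samples. RPS27L, a p53-regulated relative of RPS27 outside the 82 genes, rose in MOLM-13 with NTX-301 by 0.13 ± 0.037 (limma adjusted p = 0.0156), but not without DMSO replicate 1 (0.11) or NTX-301 replicate 2 (0.12) or with centred samples (0.097). It passed in no other drug comparison with DMSO. The differences between a gene and its paralogue were not tested.

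**Figure D4:**
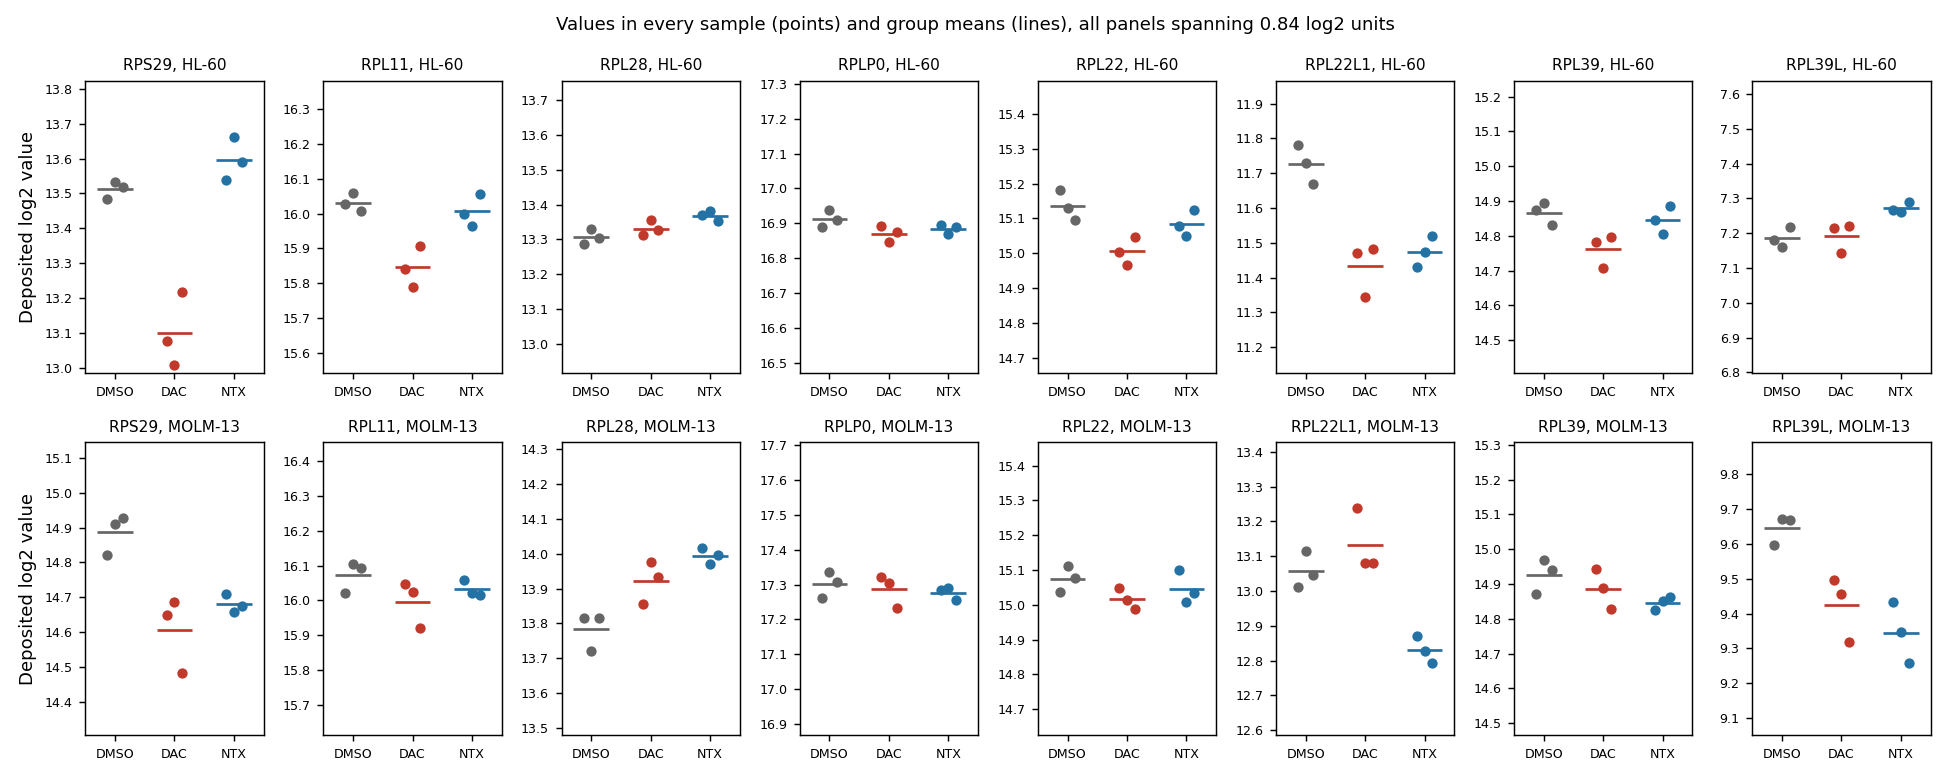
Deposited log2 values of RPS29, RPL11, RPL28, RPLP0 and the pairs RPL22 and RPL22L1, RPL39 and RPL39L in every sample (points) with group means (lines), HL-60 above and MOLM-13 below, every panel spanning the same log2 range. RPS29 and RPL11 show low DAC samples in HL-60, RPLP0 passed no test, RPL22L1 is low with both drugs in HL-60 and with NTX-301 alone in MOLM-13, and RPL39L falls in MOLM-13.

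By role, the 19 Diamond-Blackfan genes in the list had 15 lower and 0 higher with DAC in HL-60 (median -0.13), close to the 79.3% of all 82 genes, and 1 lower and 1 higher with NTX-301 (median -0.023). Of all genes 12.6% fell there with DAC, and with NTX-301 19.2% fell and 18.3% rose. Of the 82 genes 19.5% fell and 2.44% rose with NTX-301. In MOLM-13 11 fell with DAC and 7 with NTX-301, with 0 rises (medians -0.089 and -0.067), where 28% and 32.9% of the 82 genes and 21.2% and 24.8% of all genes fell. No test was made of the list against the other members. Of 7 proteins at the decoding site and messenger RNA channel, 5 fell with DAC in HL-60 and 2 in MOLM-13, near the shares of the 82 genes. Of all genes 12.6% and 21.2% fell. RPS27A, made as a fusion with ubiquitin, read 16.13, 16.17 and 16.10 in HL-60 with DMSO and 15.95, 15.88 and 16.03 with DAC, a fall of 0.18 ± 0.033 (limma adjusted p = 0.00128). FAU, a ribosomal protein made as a fusion with a ubiquitin-like protein, lies outside the symbol rule and fell by 0.10 there. Its call was lost without DMSO replicate 2 (-0.091) or 3 (-0.093) or DAC replicate 1 (-0.091) or 2 (-0.090). With NTX-301 FAU did not pass (-0.06).

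Calls were also set beside promoter sequence. In HL-60 with DAC, 46 of the 55 genes with a TOP-like run fell and 8 of the 11 without one, RPS29 among these, beside 12.6% of all genes. In MOLM-13 12 of 55 and 6 of 11 fell with DAC, and 14 of 55 and 7 of 11 with NTX-301, beside 21.2% and 24.8% of all genes. The 11 include RPL7L1, RPL26L1, RPS26 and RPS29, already named above for their falls in MOLM-13. These are counts with no test, and they rest on the annotated starts and the limit of 5 bases. Most messenger RNAs of these genes are short, with a median of 798 bases, from 344 for RPS21 to 7686 for RPL37. These lengths are medians over the annotated transcripts of a gene, whatever their use in the cells. They can therefore be far from the length of the main messenger RNA. Other short genes, at most 1000 bases and with an average of 12 or more on the log2 scale, therefore offer a comparison. In HL-60 with DAC their median was -0.053 and 29.8% of 151 fell. In MOLM-13 77.7% of 184 fell with DAC (median -0.18) and 83.7% with NTX-301 (median -0.23). The part of transcript length in these results was not tested beyond the fits without its trend, and across the 82 genes the rank correlation of length with the DAC difference in HL-60 was 0.19, over points that share the same libraries.

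Genes around the ribosome were followed as background. Of 18 other genes with TOP messenger RNAs for translation factors and partners, 8 fell and 1 rose with DAC in HL-60, and 4 fell and 1 rose in MOLM-13. The shares lower among the other abundant genes were 22.6% and 50.4%. The gene that rose in both was PABPC1, the poly(A)-binding protein, by 0.11 ± 0.021 and 0.25 ± 0.026 (limma adjusted p = 0.00161 and 2.98e-05). NPM1, a nucleolar chaperone of ribosome assembly, read 16.90, 17.00 and 16.97 in MOLM-13 with DMSO and 16.71, 16.64 and 16.59 with DAC, and fell by 0.31 there and by 0.17 in HL-60. Of 9 chaperones and carriers of ribosomal proteins, HL-60 had 4 lower with DAC and 6 lower and 1 higher with NTX-301, where MOLM-13 had 8 and 7 lower. Of the other abundant genes, HL-60 had 22.6% and 40.8% lower, where MOLM-13 had 50.4% and 55.8%, so the background differs between the lines too. BCCIP, a chaperone of the RPL23 protein, fell in MOLM-13 by 0.29 with DAC and 0.36 with NTX-301. TSR2, which escorts the RPS26 protein and was picked for that after its values were seen, read -0.13 with DAC in MOLM-13, a fall (limma adjusted p = 0.0177), and -0.10 with NTX-301, which did not pass. In HL-60 with NTX-301 TSR2 rose by 0.096, where RPS26 read -0.0965, a fall that held in 13 of 17 alternative fits. These are values side by side, and a link between TSR2 and the RPS26 transcript was not tested.

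Of 11 genes that control ribosomal protein synthesis, 2 fell and 1 rose with DAC in HL-60 and 6 fell with NTX-301, beside 22.6% and 40.8% of the other abundant genes that fell. RPTOR, the mTORC1 scaffold, read 12.73, 12.69 and 12.81 with DMSO, 12.45, 12.46 and 12.41 with DAC, and 12.64, 12.73 and 12.66 with NTX-301. Its DAC samples lay below all others, at -0.30 ± 0.032 (limma adjusted p = 1.57e-05). MYC, a transcription factor that drives these genes in many cells, read 16.52, 16.48 and 16.55 with DMSO, 16.47, 16.46 and 16.45 with DAC, and 16.25, 16.25 and 16.28 with NTX-301. Its NTX-301 samples lay below all others, with a fall of 0.25 ± 0.020 with NTX-301 (limma adjusted p = 2.47e-07) and -0.06 with DAC, which did not pass. In MOLM-13 5 of the 11 fell with DAC and 7 with NTX-301, and 0 rose, beside 50.4% and 55.8% of the other abundant genes. MYC fell there by 0.13 with DAC and 0.15 with NTX-301, though not with quantile normalization (-0.027 and -0.021). EIF4EBP1, a translation repressor that mTORC1 inactivates, fell by 0.28 and 0.34. RPTOR fell by 0.18 and 0.11, and RPS6KB2, an S6 kinase, by 0.18 and 0.29. LARP1 did not pass in any comparison (-0.04 to 0.04 within the lines). The part of these genes in the values of the ribosomal protein genes was not tested.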

How the data were processed

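RNA from 18 samples (2 lines, 3 treatments, 3 samples each) was, per the labels' protocols, made into strand-specific libraries of total RNA. The authors deposited log2 expression values normalized within each line, by a method not given in the sources used here. Per the submitters' processing notes, FastQC, Trimmomatic 0.38, HISAT2, StringTie and the build hg19 were used. Read depth per sample is unknown, so no counting error is given.

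The filter on low values kept genes whose linear value reached 1 in 3 or more samples of a line. It removed 64 genes from the HL-60 table and 0 from that of MOLM-13. Each line was fitted in limma 3.58.1 (R 4.3.3) with 9 samples, 6 residual degrees of freedom and a mean-variance trend. Drug effects were compared between lines in a fit of all 18 samples. Tests were two-sided, with Benjamini-Hochberg adjustment over all genes and a threshold of 0.05. The procedure was tested on simulated data: for DAC against DMSO over 17046 genes in HL-60, it called 29.5% of changes of 0.1, 88.6% of 0.25 and 100% of 0.5, with 3 false calls. In MOLM-13, over 17475 genes, it called 15%, 82.4% and 98.5%, with 2 false calls. The simulated noise was drawn independently for each gene, and 78, 70 and 52 genes carried these changes in HL-60. In MOLM-13 they were 60, 74 and 66. In the data 24.2% and 36.6% of genes passed with DAC, and the 82 genes moved together between replicates. The simulated rates therefore do not give the error of the counts of the 82 genes.

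The genes named were drawn from the 3 highest and 3 lowest of each comparison, a list set whatever their values and, from each list of related genes, the 2 with the lowest adjusted p. Not every gene so chosen is given for every comparison. Other genes named were chosen after their values were seen. The members and lists were chosen with earlier results of these data known. Removing each sample's trend with mRNA length was an alternative chosen after seeing the data, and the others were centring each sample on its median, quantile normalization, other filters, no mean-variance trend, the compared groups only, a replicate block and leaving out each sample. Protein sequences of the paralogues were not analysed here, and a few genes that the rule names are not reported here.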

Additional observations from a re-analysis of the deposited data

Results flagged for a closer look

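The effect of DAC differed between the lines, by the limma test of the difference itself, for 21 of the 82 genes. With the HL-60 effect taken from that of MOLM-13, the lowest values were -0.23 for RPL36AL, -0.228 for RPL39L and -0.225 for RPS26. The highest were 0.203 for RPL13, 0.205 for RPL13A and 0.369 for RPL22L1. The effect of NTX-301 differed for 14 genes. The lowest values were -0.387 for RPL39L, -0.29 for RPS29 and -0.235 for RPL26L1, and the highest were 0.142 for RPL10, 0.15 for RPL28 and 0.157 for RPL12. RPL39L read between 7.14 and 7.29 in HL-60, a low level, and the part of that level in its difference was not tested. The stated dose differs between the lines, so line and dose cannot be told apart in these differences.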

How the results depend on the processing

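With DAC in HL-60 the median of the 82 genes was below 0 when samples were centred, quantile normalized or freed of the length trend, and the number called ranged from 47 (without DMSO replicate 2) to 68 over the fits that left out 1 sample. These fits gave 8 to 24 for NTX-301 against DMSO and 32 to 51 for NTX-301 against DAC in HL-60, and 13 to 37, 16 to 34 and 1 to 2 for DAC against DMSO, NTX-301 against DMSO and NTX-301 against DAC in MOLM-13. For the differences between lines they gave 17 to 27 for DAC and 10 to 19 for NTX-301. Requiring a change of at least 0.2 left 6, 2 and 4 genes for the HL-60 comparisons (DAC, NTX-301, between drugs), 6, 8 and 1 for those of MOLM-13, and 6 and 4 between the lines. Centring gave 34 for NTX-301 against DMSO in HL-60, and 52 and 48 for DAC and NTX-301 in MOLM-13. Removal of the length trend gave 28 for NTX-301 against DMSO in HL-60, 7 between the drugs in MOLM-13, and 56 and 35 between the lines. Quantile normalization gave 9 between the drugs in MOLM-13, and 50 and 26 between the lines. For the counts in the last 3 sentences, the shares of all genes called under the same scaling are given above. Shares are not given for every other comparison and scaling, and for DAC against DMSO in HL-60 under none of the 3. After removal of the length trend, that comparison had 2 of the 82 genes higher and 55 lower, where 0 rose with the deposited values. Fitting only the compared groups gave 16 for DAC and 1 between the drugs in MOLM-13, where leaving out the paralogues also gave 1. The median moved above 0 in MOLM-13 with quantile normalization (DAC 0.0177, NTX-301 0.0349) and without the length trend (0.0254 and 0.0439), as it did for the NTX-301 difference between lines (0.0259 and 0.0629), and with quantile normalization for NTX-301 in HL-60 (0.00605). The cause of these shifts was not tested.

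Over all genes, same-numbered samples had deviations correlated between -0.0565 and 0.118 in HL-60 and between -0.16 and 0.11 in MOLM-13. Other pairs ranged from -0.115 to 0.106 and from -0.12 to 0.159. For the 82 genes, the DAC and NTX-301 samples of HL-60 did share an order. Replicate 3 was the highest for 72 genes in each group, and replicate 2 the lowest for 71 and 65. A pairing of these samples was not tested. With the replicate block the counts for DAC, NTX-301 and between the drugs were 66, 18 and 53 for HL-60 and 20, 22 and 1 for MOLM-13. Between the lines they were 20 and 14.

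Of 319 values of single genes, 17 changed direction with quantile normalization and 12 without the length trend, in each case with a call on at least 1 side, and 0 with any other setting. With quantile normalization, NTX-301 minus DMSO became 0.0642 for RPL10A in HL-60. In MOLM-13 it became 0.0657 for RPL11, 0.0476 for RPL17, 0.0998 for RPL22, 0.0552 for RPL5, 0.063 for RPLP0, 0.0671 for RPS25, 0.00953 for RPS27A, 0.012 for RPS3 and 0.138 for RPS4X. DAC minus DMSO there became 0.0165 for RPL17, 0.0679 for RPL22, 0.0117 for RPS25 and 0.112 for RPS4X, and RPLP0 became 0.0806 between the drugs. Between the lines RPL17 became 0.118 (NTX-301) and RPL7L1 0.0024 (DAC). Without the length trend, NTX-301 minus DMSO in MOLM-13 became 0.0686 for RPL10A, 0.0606 for RPL11, 0.00635 for RPL17, 0.0762 for RPL39, 0.12 for RPS27, 0.0152 for RPS27A and 0.0602 for RPS4X. DAC minus DMSO became 0.0611 for RPL10A, 0.11 for RPL39 and 0.0834 for RPS27. Between the lines NTX-301 became 0.105 for RPL39 and 0.134 for RPS27. The cause was not tested. Changes near 0.1 on the log2 scale are at the limit of what 3 samples a group can show.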
